A study of Homo sapiens with 18 samples.

Results

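The genes described here are 10 targets of the coactivator YAP and its DNA-binding partners of the TEAD family: CCN1, CCN2, ANKRD1, AMOTL1, AMOTL2, LATS2, AXL, CRIM1, F3 and AJUBA. They were taken by gene symbol from the 61544 rows that each of the 2 deposited count tables holds. All 10 were found in both tables and all 10 passed the filter on low counts in each. YAP and its relative TAZ (gene WWTR1) are the transcriptional arm of the Hippo pathway, in which the kinases LATS1 and LATS2 phosphorylate both proteins and keep them out of the nucleus. When cells spread, stretch or lie on a stiff matrix, YAP and TAZ enter the nucleus and bind TEAD proteins, and in fibroblasts they are best known for matrix production, contractility and fibrosis. Several of their targets are brakes on the pathway itself: LATS2 is the inhibitory kinase and AMOTL1 and AMOTL2 hold YAP in the cytoplasm.

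Poly(A) RNA was sequenced from BJ cells, an established line of human skin fibroblasts, in a series on the long noncoding RNA PURPL and cellular senescence. The knockdown table held 3 libraries each of cells with the PURPL guides sgRNA-PURPL#1 and sgRNA-PURPL#2, in which CRISPR interference represses transcription of the targeted gene, and of cells with the control guide sgCtrl. The overexpression table held 3 libraries each of the PURPL-overexpressing groups PURPL#1-OE and PURPL#2-OE and of their control Ctrl. The labels do not say what separates PURPL#1-OE from PURPL#2-OE (a construct, an isoform or a clone), which promoter or repressor was used, or whether the libraries of a group came from separate cultures, so the p-values rest on a spread between libraries that may be technical.

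The 9 knockdown libraries held 11444513 to 12896040 counts each, and the 9 overexpression libraries held 18858976 to 27985649. Levels are given in CPM, the usual depth-scaled read count of a gene, with library totals scaled by TMM, and the tables were scaled separately. PURPL lay between 14.1 and 21.5 CPM in the 6 libraries with a PURPL guide, against 71.1 to 94.3 CPM with sgCtrl. It lay between 114 and 178 CPM in the 6 overexpression libraries, against 59.2 to 67.3 CPM in Ctrl. The library sgCtrl replicate 1 stood farther from its group than any other in the knockdown table, with a chi-square per gene of 7.12 and 10.9 against sgCtrl replicates 2 and 3, which differed from each other by 4.32; the other knockdown pairs within a group gave 2.50 to 3.31. All 9 fibroblast markers were detected, with the keratins KRT1, KRT5 and KRT14 at 0 to 1 counts in every library. The 7 keratinocyte markers, mostly the desmosome gene DSP, summed to 199.8 to 209 CPM with sgRNA-PURPL#1 and 249 to 274 CPM with sgRNA-PURPL#2, against 223 to 287 CPM with sgCtrl, and to 507 to 534 CPM in PURPL#1-OE and 508 to 563 CPM in PURPL#2-OE, against 512 to 551 CPM in Ctrl. Of this list, the epithelial cadherin gene CDH1 was higher with sgRNA-PURPL#2 by 1.73 on the log2 scale (adjusted p 0.00161) and in PURPL#1-OE by 1.62 (adjusted p 0.0310), at 5 to 117 counts per library over all 18. The part of this list in the results was not tested. The fibroblast markers summed to 27801 to 29051 CPM in PURPL#1-OE and 30129 to 31389 CPM in PURPL#2-OE, against 22921 to 23416 CPM in Ctrl. Of the 9, 7 and 8 were called higher in these groups and 0 lower, where 19.5% and 18.9% of all genes tested were called higher. The part that this shift has in the overexpression results was not tested. With sgRNA-PURPL#1, 3 of the 9 were called higher and 1 lower. With sgRNA-PURPL#2, 3 were called higher and 3 lower. Of all genes tested, 24.5% and 24.4% were called with these guides. The endothelial, melanocyte and leukocyte lists summed to at most 7.29, 1.43 and 2.35 CPM in any library. The leukocyte gene CD68, at 0 to 2 counts per library, shares 96.7% of its span with another gene on its strand. The fibroblast marker PDGFRA shares 95.7% of its span in the same way. Reads in stretches shared in this way were not counted. The 4 smooth muscle markers, nearly all SYNPO2 and LMOD1, summed to 352 to 391 CPM with sgRNA-PURPL#1 and 348 to 378 CPM with sgRNA-PURPL#2, against 229 to 279.9 CPM with sgCtrl. They summed to 607 to 643 CPM in PURPL#1-OE and 447 to 482 CPM in PURPL#2-OE, against 498 to 555 CPM in Ctrl. The part of these shifts in the results was likewise not tested. These bulk values cannot tell fewer cells of a type from less RNA per cell.

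The tables list each gene's length as its whole span, introns included, so levels are compared within a gene and not between genes. On hg38, CCN1 (ENSG00000142871.18) lies at chr1:85580761-85584589 on the plus strand, CRIM1 (ENSG00000150938.10) at chr2:36355778-36551135 plus, AMOTL1 (ENSG00000166025.18) at chr11:94706431-94876748 plus, and AXL (ENSG00000167601.12) at chr19:41219223-41261766 plus. On the minus strand, F3 (ENSG00000117525.14) lies at chr1:94529173-94541759, AMOTL2 (ENSG00000114019.15) at chr3:134355347-134375479, CCN2 (ENSG00000118523.6) at chr6:131948176-131951372, and ANKRD1 (ENSG00000148677.7) at chr10:90912096-90921087. LATS2 (ENSG00000150457.9) lies at chr13:20973036-21061586 and AJUBA (ENSG00000129474.16) at chr14:22971177-22982551, both on the minus strand. AJUBA is the uncertain member. Another gene on its strand, ENSG00000259132, shares 97.4% of its span, and only 293 of its 11375 bases are unshared. No library had a count for any of the 9429 genes that are enclosed by a same-strand gene, so reads shared in this way were not counted. The antisense gene CCN2-AS1, which overlaps 427 bases of CCN2 on the other strand, had 1 to 9 counts in the knockdown libraries, and LATS2-AS1 had 0 to 3 counts in any library.

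The promoters show which members carry the TEAD recognition letters next to their start. RefSeq promoter windows on GRCh38.p14 were found for 8 of the 10 members, 11 windows in all, each running from 250 bases before an annotated transcription start to 50 after it. CCN1 and CRIM1 had no entry. The TEAD core GGAATG was searched on both strands, as were the AP-1 letters TGANTCA, which read the same on either strand, with N for any base. No match of one motif overlapped a match of the other in these windows. The 250 bases before the start are printed for CCN2 and ANKRD1, which hold the most TEAD matches among the 8 members with a window, for AMOTL2 at the second of its 2 annotated starts, and for F3, which holds AP-1 letters and no TEAD core. Capitals mark the matches, GGAATG or its reverse complement for TEAD and the 7-letter matches for AP-1. All 4 lie on the minus strand and are written 5′ to 3′ in the direction of transcription; CCN2 is chr6:131951373-131951622, ANKRD1 chr10:90921088-90921337, AMOTL2 chr3:134374448-134374697 and F3 chr1:94541760-94542009.
CCN2: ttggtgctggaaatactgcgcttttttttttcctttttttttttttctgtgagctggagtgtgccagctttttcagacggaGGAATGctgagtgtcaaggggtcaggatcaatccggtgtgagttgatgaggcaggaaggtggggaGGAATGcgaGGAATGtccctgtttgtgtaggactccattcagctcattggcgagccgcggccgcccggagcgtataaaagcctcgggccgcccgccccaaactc
ANKRD1: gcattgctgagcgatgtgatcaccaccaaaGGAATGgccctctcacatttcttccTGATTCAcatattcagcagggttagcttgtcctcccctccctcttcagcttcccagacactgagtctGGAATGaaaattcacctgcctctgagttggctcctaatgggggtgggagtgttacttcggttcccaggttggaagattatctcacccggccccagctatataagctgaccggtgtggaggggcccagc
AMOTL2: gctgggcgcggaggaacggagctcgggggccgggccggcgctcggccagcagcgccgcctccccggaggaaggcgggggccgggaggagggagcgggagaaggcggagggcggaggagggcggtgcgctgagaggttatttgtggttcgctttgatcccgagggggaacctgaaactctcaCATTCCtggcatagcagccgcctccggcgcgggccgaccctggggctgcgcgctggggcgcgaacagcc
F3: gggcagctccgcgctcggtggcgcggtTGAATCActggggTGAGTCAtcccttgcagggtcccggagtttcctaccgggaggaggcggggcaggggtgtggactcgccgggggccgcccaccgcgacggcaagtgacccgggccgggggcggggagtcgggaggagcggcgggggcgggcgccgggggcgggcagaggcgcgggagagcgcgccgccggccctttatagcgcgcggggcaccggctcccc

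The CCN2 window held 3 TEAD cores, at 169, 104 and 95 bases before the start. Among all 35116 RefSeq windows of this length, 14.03% held at least 1 TEAD core, 1.37% held 2 or more and 0.128% held 3 or more. ANKRD1 held 2 cores, at 220 and 128 bases before the start, with an AP-1 match between them at 195. AMOTL2 held 1 core at its second start, 69 bases before it, and none at its first. LATS2 held 1 just after its start, and AXL and AJUBA held 1 each at the second of their 2 starts, at 212 and 59 bases before it. AMOTL1 held neither motif in its only window, chr11:94768106-94768405. That window lies inside the gene's span, so the sequence at the start of the span was not searched. F3 held 2 AP-1 matches, at 223 and 210 bases before the start, where 7.71% of all windows held at least 1 and 0.515% held 2 or more. A match is a description of letters and does not show binding, and a window without a match says only that these letters are not in it.

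**Figure D1:**
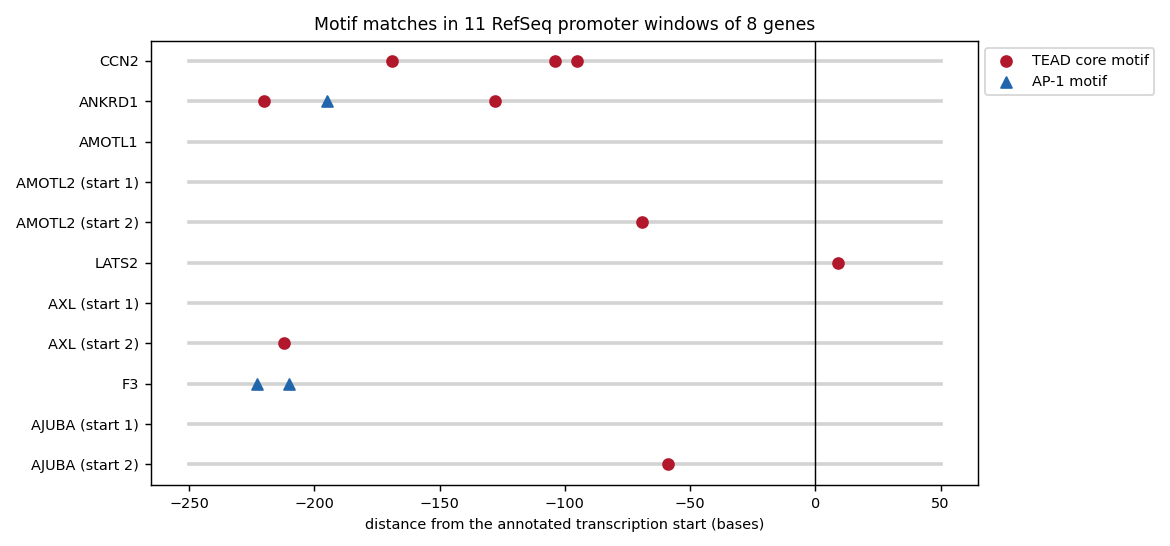
Positions of TEAD (GGAATG, both strands) and AP-1 (TGANTCA) matches in the 11 RefSeq promoter windows of 8 genes. The horizontal axis is the distance from the annotated transcription start in bases, each row is a window and each symbol a match. CCN2 carries 3 TEAD matches, ANKRD1 carries 2 with an AP-1 match between them, and F3 carries 2 AP-1 matches.

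Lowering PURPL was accompanied by lower CCN1, F3 and AXL with both guides. With sgRNA-PURPL#1, F3 stood at 0.371 of the sgCtrl level and CCN1 at 0.499, and no member was higher. With sgRNA-PURPL#2 the same 3 genes were lower by less, while ANKRD1 stood at 3.04 times the sgCtrl level, and CCN2 and AMOTL2 were also higher. In cells with raised PURPL, CCN2 stood at 2.97 times the Ctrl level in PURPL#1-OE and 1.83 times in PURPL#2-OE. CCN1, AMOTL2 and LATS2 were higher in both overexpression groups and ANKRD1 and AXL lower in both. With both guides, 0 members were higher and 3 lower, where 6.81% of all genes tested were called higher with both and 8.1% lower with both. In both overexpression groups 4 members were higher and 2 lower, where 13.4% of all genes tested were higher in both and 14.8% lower in both. The arms of a table share their control libraries. CCN1 and AXL were called in all 4 arms, CCN1 in opposite directions and AXL lower throughout.

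A gene was called when its adjusted p in edgeR's quasi-likelihood test, corrected by Benjamini and Hochberg's method over all genes of its table, was under 0.05. In sgRNA-PURPL#1 against sgCtrl, 0 of 10 members were called higher and 5 lower (CCN1, F3, AXL, CRIM1 and LATS2), where 24.5% of the 13923 genes tested were called, 11.6% higher and 12.9% lower. The median log2 fold change was -0.15 over the members and 0.00374 over all genes. In sgRNA-PURPL#2 against sgCtrl, 3 were called higher (CCN2, ANKRD1 and AMOTL2) and 3 lower (CCN1, AXL and F3), where 24.4% of all genes were called, 11.9% higher and 12.4% lower. The median was -0.06 over the members and -0.00141 over all genes. Without sgCtrl replicate 1, the library that stood apart, the counts with sgRNA-PURPL#1 were again 0 higher and 5 lower, and with sgRNA-PURPL#2 they were 3 higher and 5 lower. Both comparisons share the sgCtrl libraries.

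In PURPL#1-OE against Ctrl, 5 members were called higher (CCN1, CCN2, AMOTL2, LATS2 and CRIM1) and 3 lower (ANKRD1, AXL and AMOTL1), where 39.6% of the 15267 genes tested were called, 19.5% higher and 20.1% lower. The median log2 fold change was 0.22 over the members and 0.00763 over all genes. In PURPL#2-OE against Ctrl, 4 were called higher (CCN1, CCN2, AMOTL2 and LATS2) and 3 lower (ANKRD1, AXL and F3), where 38.5% of all genes were called, 18.9% higher and 19.6% lower. The median was 0.09 over the members and 0.00689 over all genes. Both comparisons share the Ctrl libraries. The 3 libraries of an arm did not overlap the 3 of its control for 5 members with sgRNA-PURPL#1, 8 with sgRNA-PURPL#2, 8 in PURPL#1-OE and 8 in PURPL#2-OE. Over all genes tested, that was so for 36.9%, 35.9%, 49.9% and 46.3% of genes in the same order of arms.

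**Figure D2:**
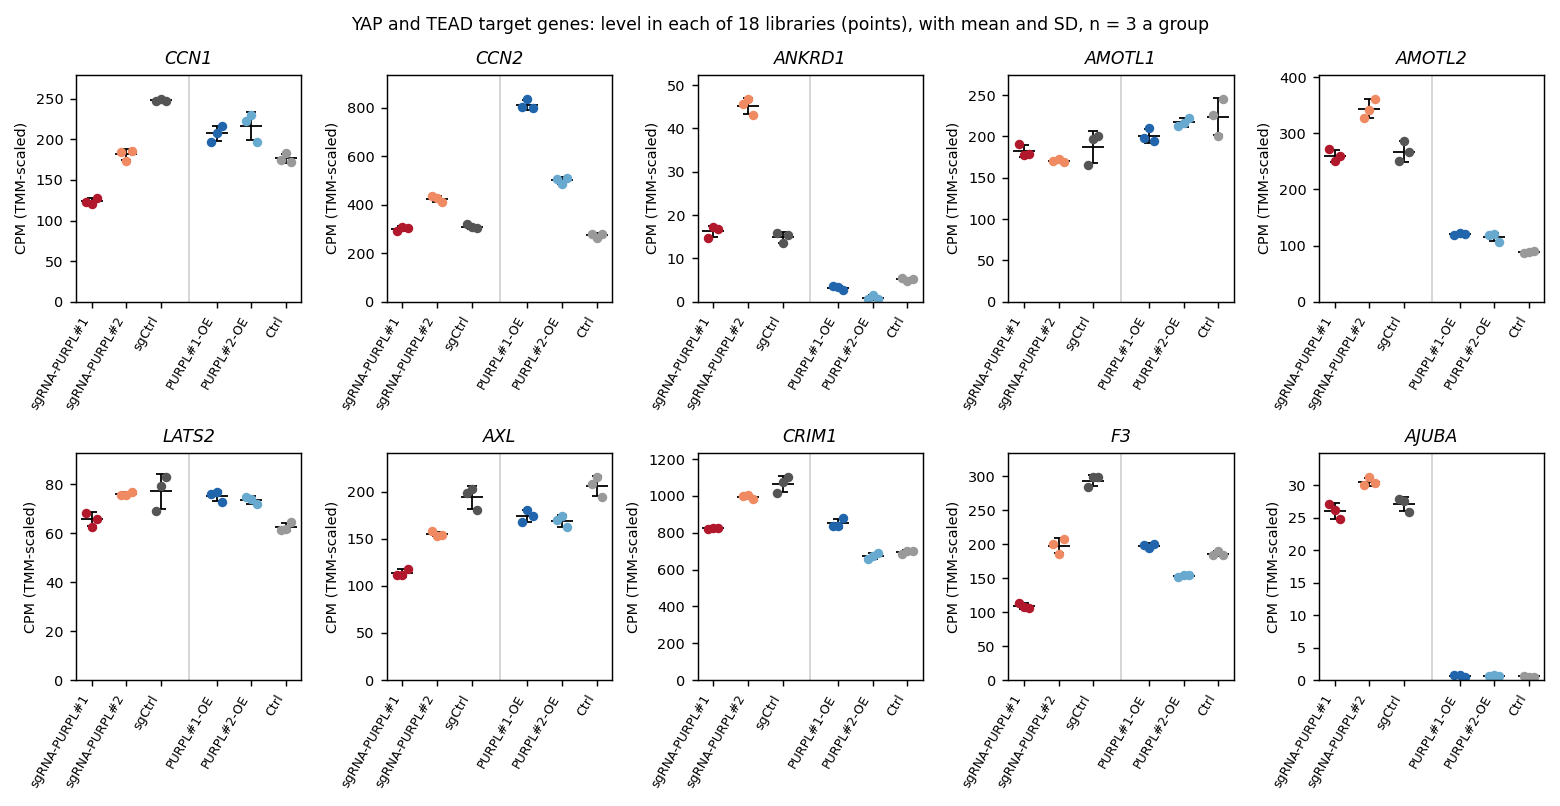
Level of each of the 10 genes in every library, as TMM-scaled CPM on a linear axis from 0, with points for libraries and black bars for the mean and SD (n = 3 a group). In each panel the knockdown groups stand left of the grey line and the overexpression groups right of it. CCN2 reaches 798 to 836 CPM in PURPL#1-OE, against 261 to 279.5 CPM in Ctrl, and AJUBA is near 0 throughout the overexpression table.

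CCN1 and CCN2 encode secreted matricellular proteins that bind integrins and matrix. CCN2, also known as connective tissue growth factor, is tied to fibrosis, and CCN1 drives fibroblasts of healing mouse skin into senescence. CCN1 had 123, 120.3 and 128 CPM with sgRNA-PURPL#1 and 185, 174 and 185 CPM with sgRNA-PURPL#2, against 247, 249.9 and 247 CPM with sgCtrl. The 3 groups did not overlap, and the level fell to a lower value with sgRNA-PURPL#1 than with sgRNA-PURPL#2. The log2 fold change was -1.003 ± 0.0583 (SE) with sgRNA-PURPL#1 (adjusted p 3.16e-14) and -0.45 ± 0.0572 with sgRNA-PURPL#2 (adjusted p 4.19e-07). In the overexpression table, CCN1 had 197, 208 and 217 CPM in PURPL#1-OE and 222, 229.9 and 197 CPM in PURPL#2-OE, against 174, 183 and 172 CPM in Ctrl. Every overexpression library lay above every Ctrl library, and the overexpression groups overlapped each other. CCN1 rose by 0.23 ± 0.0564 on the log2 scale in PURPL#1-OE (adjusted p 0.00140) and by 0.29 ± 0.0565 in PURPL#2-OE (adjusted p 1.07e-04).

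CCN2 did not follow CCN1 with either guide. It had 291, 308 and 306 CPM with sgRNA-PURPL#1 and 436, 427 and 411 CPM with sgRNA-PURPL#2, against 319, 307 and 303 CPM with sgCtrl. The sgRNA-PURPL#1 libraries overlapped sgCtrl, while all 3 sgRNA-PURPL#2 libraries lay above both. Its log2 fold change with sgRNA-PURPL#1 was -0.04 (95% interval -0.15 to 0.08, adjusted p 0.674), and with sgRNA-PURPL#2 CCN2 rose by 0.45 ± 0.0560 (adjusted p 2.51e-07). With raised PURPL, CCN2 had 803, 836 and 798 CPM in PURPL#1-OE and 506, 485 and 509 CPM in PURPL#2-OE, against 279.5, 261 and 279 CPM in Ctrl. No library of any of these groups overlapped another group, with PURPL#1-OE highest. The rise was 1.57 ± 0.0510 on the log2 scale in PURPL#1-OE (adjusted p 4.04e-21), the largest change of any member in that arm, and 0.87 ± 0.0505 in PURPL#2-OE (adjusted p 8.07e-15). PURPL had 166, 178 and 176 CPM in PURPL#1-OE and 125, 129 and 114 CPM in PURPL#2-OE. The part of the PURPL level in the CCN2 difference between these groups was not tested. CCN2-AS1 had 39 to 53 counts per library in PURPL#1-OE and 34 to 43 in PURPL#2-OE, against 23 to 29 in Ctrl.

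ANKRD1, an ankyrin repeat protein of the nucleus and the muscle sarcomere that is widely used as a readout of YAP, differed most between guides and between experiments. It had 14.8, 17.2 and 16.8 CPM with sgRNA-PURPL#1 and 45.6, 46.8 and 43.1 CPM with sgRNA-PURPL#2, against 15.8, 13.5 and 15.3 CPM with sgCtrl. The sgRNA-PURPL#1 libraries overlapped sgCtrl, and the 3 sgRNA-PURPL#2 libraries stood far above all others. Its log2 fold change was 0.13 with sgRNA-PURPL#1 (95% interval -0.08 to 0.34, adjusted p 0.382) and 1.60 ± 0.0900 with sgRNA-PURPL#2 (adjusted p 1.94e-14). In the overexpression table it was scarce: 3.65, 3.37 and 2.61 CPM in PURPL#1-OE and 0.746, 1.62 and 0.574 CPM in PURPL#2-OE, against 5.42, 4.77 and 5.37 CPM in Ctrl. These are 66 to 102 counts per library in PURPL#1-OE and 14 to 35 in PURPL#2-OE, against 104 to 139 in Ctrl. The 3 groups did not overlap, and each PURPL#2-OE library was the lower. ANKRD1 fell by 0.69 ± 0.196 on the log2 scale in PURPL#1-OE (adjusted p 0.00591) and fell by 2.40 ± 0.243 in PURPL#2-OE (adjusted p 3.36e-09). ANKRD1 and CCN2, which hold the most TEAD cores among the 8 members with a promoter window, had changes of opposite sign in both overexpression groups. The part of the TEAD cores in these changes was not tested.

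F3, AXL and CRIM1 are membrane proteins. F3 encodes tissue factor, which starts blood coagulation, AXL a receptor tyrosine kinase for GAS6, and CRIM1 a transmembrane protein with cysteine-rich repeats that binds bone morphogenetic proteins. F3 had 113, 107 and 105 CPM with sgRNA-PURPL#1 and 199.7, 186 and 208 CPM with sgRNA-PURPL#2, against 284, 299 and 298 CPM with sgCtrl. The 3 groups did not overlap. F3 fell by 1.43 ± 0.0614 on the log2 scale with sgRNA-PURPL#1 (adjusted p 2.96e-17) and fell by 0.57 ± 0.0594 with sgRNA-PURPL#2 (adjusted p 1.20e-08). It had 199, 194 and 201 CPM in PURPL#1-OE and 151, 155 and 155 CPM in PURPL#2-OE, against 184, 190.2 and 185 CPM in Ctrl. The PURPL#1-OE libraries all lay above Ctrl by a small margin and the PURPL#2-OE libraries all below it. In PURPL#1-OE the log2 fold change was 0.09 (95% interval -0.01 to 0.19, adjusted p 0.146), and in PURPL#2-OE F3 fell by 0.28 ± 0.0486 (adjusted p 3.24e-05).

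AXL was the member that was lower in every arm. It had 111, 111 and 118 CPM with sgRNA-PURPL#1 and 158, 153 and 154 CPM with sgRNA-PURPL#2, against 199, 203 and 180.0 CPM with sgCtrl. The 3 groups did not overlap. AXL fell by 0.77 ± 0.0613 on the log2 scale with sgRNA-PURPL#1 (adjusted p 3.42e-11) and fell by 0.32 ± 0.0604 with sgRNA-PURPL#2 (adjusted p 1.42e-04). It had 167, 181 and 174 CPM in PURPL#1-OE and 169.8, 174 and 162 CPM in PURPL#2-OE, against 208, 215 and 195 CPM in Ctrl. Both overexpression groups lay below every Ctrl library and overlapped each other. AXL fell by 0.24 ± 0.0525 on the log2 scale in PURPL#1-OE (adjusted p 3.65e-04) and fell by 0.29 ± 0.0527 in PURPL#2-OE (adjusted p 4.91e-05).

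CRIM1 changed with sgRNA-PURPL#1 and in PURPL#1-OE, in opposite directions. It had 821, 825 and 824 CPM with sgRNA-PURPL#1 and 1002, 1004 and 983 CPM with sgRNA-PURPL#2, against 1014, 1077 and 1102 CPM with sgCtrl. The sgRNA-PURPL#1 libraries were nearly identical and the lowest, and sgRNA-PURPL#2 lay just below sgCtrl without overlap. CRIM1 fell by 0.37 ± 0.0552 on the log2 scale with sgRNA-PURPL#1 (adjusted p 5.29e-06). The log2 fold change with sgRNA-PURPL#2 was -0.10 (95% interval -0.21 to 0.02, adjusted p 0.222), and without sgCtrl replicate 1 it was -0.13 (adjusted p 0.0468). CRIM1 had 837, 839 and 878 CPM in PURPL#1-OE and 656, 675 and 691 CPM in PURPL#2-OE, against 686, 701 and 703 CPM in Ctrl. It rose by 0.29 ± 0.0488 on the log2 scale in PURPL#1-OE (adjusted p 1.55e-05), where no library overlapped Ctrl, and the change of -0.05 in PURPL#2-OE had a 95% interval of -0.15 to 0.05 (adjusted p 0.488).

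The remaining 4 members act inside the Hippo pathway. LATS2 is the kinase that inactivates YAP and TAZ, AMOTL1 and AMOTL2 are angiomotin family proteins that bind YAP outside the nucleus, and AJUBA is a LIM domain protein that binds and restrains the LATS kinases. AMOTL2 had 271, 250.2 and 259 CPM with sgRNA-PURPL#1 and 327, 342 and 361 CPM with sgRNA-PURPL#2, against 250.1, 286 and 266 CPM with sgCtrl. Only the sgRNA-PURPL#2 libraries lay clear of sgCtrl, all 3 above it. AMOTL2 rose by 0.36 ± 0.0612 on the log2 scale with sgRNA-PURPL#2 (adjusted p 3.74e-05), and the change of -0.04 with sgRNA-PURPL#1 had a 95% interval of -0.17 to 0.09 (adjusted p 0.695). In the overexpression table AMOTL2 had 119, 123 and 120.4 CPM in PURPL#1-OE and 118, 121 and 106 CPM in PURPL#2-OE, against 86.4, 88.7 and 90.2 CPM in Ctrl. Every overexpression library lay above Ctrl. The rise was 0.45 ± 0.0544 on the log2 scale in PURPL#1-OE (adjusted p 6.96e-08) and 0.38 ± 0.0548 in PURPL#2-OE (adjusted p 1.36e-06).

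LATS2 had 68.3, 62.6 and 65.9 CPM with sgRNA-PURPL#1 and 75.5, 75.7 and 76.8 CPM with sgRNA-PURPL#2, against 69.2, 79.2 and 82.8 CPM with sgCtrl. The sgRNA-PURPL#1 libraries were below every sgCtrl library by a narrow margin, and sgRNA-PURPL#2 lay inside the sgCtrl range. LATS2 fell by 0.23 ± 0.0690 on the log2 scale with sgRNA-PURPL#1 (adjusted p 0.0121); the adjusted p was 0.0540 without sgCtrl replicate 2, 0.0608 without sgCtrl replicate 3 and 0.0765 without sgRNA-PURPL#1 replicate 2. The log2 fold change with sgRNA-PURPL#2 was -0.02 (95% interval -0.16 to 0.12, adjusted p 0.858). In the overexpression table LATS2 had 76.0, 76.6 and 72.8 CPM in PURPL#1-OE and 74.8, 73.8 and 72.0 CPM in PURPL#2-OE, against 61.3, 61.9 and 64.3 CPM in Ctrl. Both overexpression groups lay above every Ctrl library and overlapped each other. LATS2 rose by 0.27 ± 0.0544 on the log2 scale in PURPL#1-OE (adjusted p 2.04e-04) and by 0.23 ± 0.0548 in PURPL#2-OE (adjusted p 9.70e-04).

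AMOTL1 lay within or near the range of its control in every arm. It had 190.4, 177 and 178 CPM with sgRNA-PURPL#1 and 170.3, 173 and 169 CPM with sgRNA-PURPL#2, against 166, 196 and 200.4 CPM with sgCtrl, whose replicate 1 was the lowest of the 9 libraries. The log2 fold change was -0.04 with sgRNA-PURPL#1 (95% interval -0.18 to 0.09, adjusted p 0.681) and -0.14 with sgRNA-PURPL#2 (adjusted p 0.136), and without sgCtrl replicate 1 the second was -0.22 (adjusted p 0.00240). AMOTL1 had 198, 210.0 and 194 CPM in PURPL#1-OE and 212, 217 and 222 CPM in PURPL#2-OE, against 226, 201 and 245 CPM in Ctrl. The fall of 0.16 ± 0.0587 on the log2 scale in PURPL#1-OE passed the threshold (adjusted p 0.0316) although the groups overlapped. Its adjusted p was 0.0888 without Ctrl replicate 1, 0.235 without Ctrl replicate 3, and 0.103 and 0.141 without each of 2 PURPL#1-OE libraries. In PURPL#2-OE the log2 fold change was -0.05 (95% interval -0.17 to 0.08, adjusted p 0.586).

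AJUBA was called in no arm. It had 27.2, 26.2 and 24.8 CPM with sgRNA-PURPL#1 and 30.0, 31.2 and 30.4 CPM with sgRNA-PURPL#2, against 27.8, 27.6 and 25.9 CPM with sgCtrl. All 3 sgRNA-PURPL#2 libraries lay above the rest, by a log2 fold change against sgCtrl of 0.17 (95% interval 0.01 to 0.34, adjusted p 0.128). In the overexpression table it had 10 to 20 counts per library, which is 0.396 to 0.854 CPM in PURPL#1-OE and 0.640 to 0.740 CPM in PURPL#2-OE, against 0.516 to 0.624 CPM in Ctrl. At that depth the 95% interval of its log2 fold change ran from -0.59 to 0.99 in PURPL#1-OE and from -0.50 to 1.09 in PURPL#2-OE. The level of AJUBA thus lay far apart in the 2 tables, which were scaled separately, in a gene of which most of the span was not counted. The cause was not tested.

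**Figure D3:**
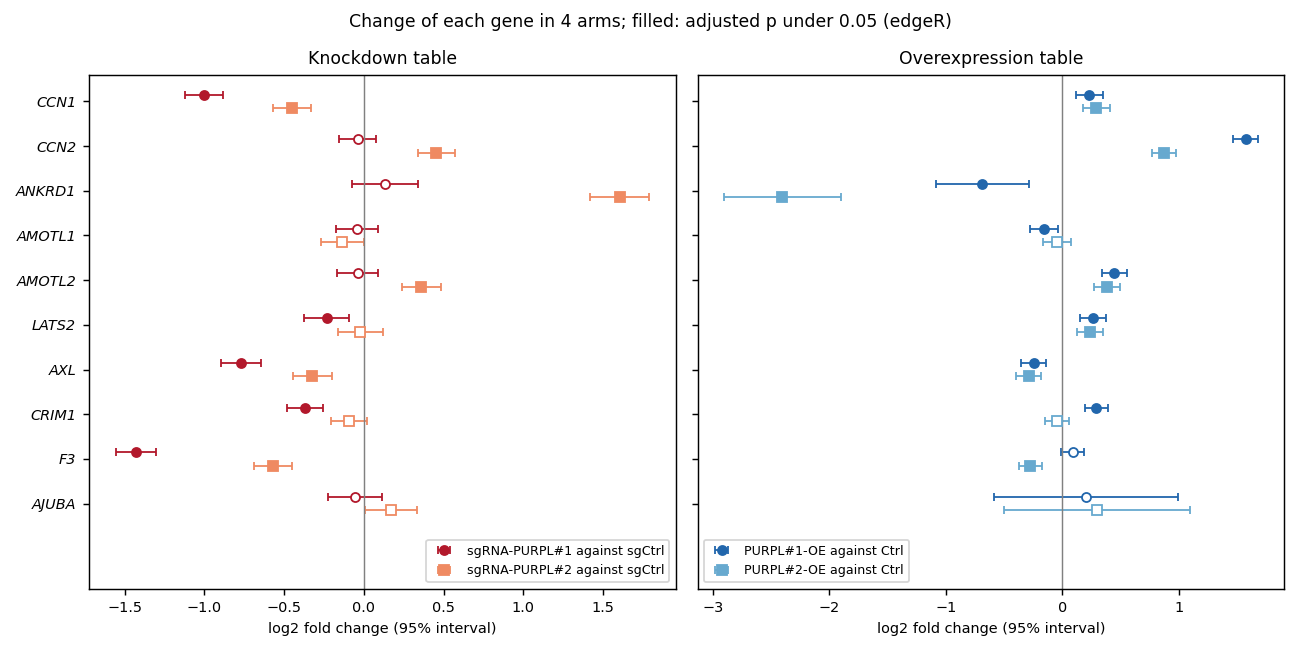
Log2 fold change of each of the 10 genes with its 95% interval (horizontal axis), for the knockdown arms against sgCtrl in the left panel and the overexpression arms against Ctrl in the right panel. Filled symbols have an adjusted p under 0.05 in edgeR's quasi-likelihood test. CCN1, AXL and F3 lie left of 0 for both guides, and CCN2 lies farthest right and ANKRD1 farthest left in both overexpression arms.

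The guides were also compared with each other directly. PURPL itself differed between sgRNA-PURPL#2 and sgRNA-PURPL#1 by 0.30 on the log2 scale (95% interval 0.06 to 0.55, adjusted p 0.128). ZIM3, a KRAB zinc finger gene, had 92.1 to 97.3 CPM with sgRNA-PURPL#1 and 266 to 323 CPM with sgRNA-PURPL#2, against 177 to 232 CPM with sgCtrl, and 0 counts in every overexpression library. It was higher with sgRNA-PURPL#2 than with sgRNA-PURPL#1 by 1.67 ± 0.0920 on the log2 scale (adjusted p 3.14e-10). Whether the ZIM3 reads came from the cells' own gene was not tested. The part of ZIM3 in the members' differences between the guides was not tested either. Of the 10 members, 8 were higher with sgRNA-PURPL#2 than with sgRNA-PURPL#1 and 0 lower, where 9.25% of the 13923 genes tested were called, 5.51% higher and 3.74% lower. The median log2 difference was 0.43 over the members and 0.000452 over all genes. The difference was 1.47 ± 0.0889 for ANKRD1 (adjusted p 3.38e-13), 0.86 ± 0.0615 for F3 (adjusted p 1.86e-11) and 0.55 ± 0.0586 for CCN1 (adjusted p 7.10e-08). CCN2 (0.49), AXL (0.45), AMOTL2 (0.40) and CRIM1 (0.27) were also higher, with adjusted p between 2.14e-07 and 8.81e-04. LATS2 was higher by 0.21 ± 0.0691 with an adjusted p of 0.0495, which rose to between 0.0572 and 0.225 in 7 of the 9 fits that left out a library. The libraries of the guides did not overlap for any of the 10 members, which was so for 28.4% of all genes tested. AMOTL1 (-0.09, adjusted p 0.476) and AJUBA (0.23, adjusted p 0.0800) were not called.

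Between the overexpression groups, 0 members were higher in PURPL#2-OE than in PURPL#1-OE and 4 were lower, where 12.4% of the 15267 genes tested were called, 6.18% higher and 6.19% lower. The median log2 difference was -0.06 over the members and 0.00271 over all genes. ANKRD1 was lower by a log2 difference of -1.72 ± 0.256 (adjusted p 1.78e-05) and CCN2 by -0.70 ± 0.0499 (adjusted p 1.44e-11). F3 (-0.36, adjusted p 2.23e-06) and CRIM1 (-0.34, adjusted p 9.44e-06) were the others. The remaining 6 members had differences between -0.07 and 0.11, none called.

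The effects of lowered and of raised PURPL on the members were compared in a joint fit of all 18 libraries. The test took the mean effect of both guides minus the mean effect of both overexpression groups, each against its own control. Lowering and raising PURPL lie in separate tables, so their difference cannot be told apart from other differences between the experiments. The mean over the guides also hides their differences from each other, given above. Of the 10 members, 1 was called higher (ANKRD1) and 7 lower, where 33.6% of the 15166 genes tested were called, 18.0% higher and 15.6% lower. The median difference was -0.31 over the members and 0.00903 over all genes on the log2 scale. ANKRD1 had the largest, 2.42 ± 0.185 (adjusted p 1.57e-14), being lower with raised PURPL and higher with 1 of the guides. CCN2 differed by -1.01 ± 0.0666 (adjusted p 1.11e-16), CCN1 by -0.98 ± 0.0714 (adjusted p 2.47e-15) and F3 by -0.90 ± 0.0674 (adjusted p 6.37e-15). LATS2 (-0.37, adjusted p 1.16e-04), CRIM1 (-0.35, adjusted p 3.32e-05) and AXL (-0.28, adjusted p 0.00192) followed. AMOTL2 had -0.25 ± 0.0738 (adjusted p 0.00729), and an adjusted p of 0.0524 without sgCtrl replicate 2. A negative value does not mean opposite changes in the experiments. Of the 7, only CCN1 was called lower with both guides and higher in both overexpression groups. LATS2 and CRIM1 were called lower with sgRNA-PURPL#1 and higher in PURPL#1-OE. AXL was called lower in all 4 arms, and F3 in all but PURPL#1-OE. CCN2 and AMOTL2 were called higher with sgRNA-PURPL#2 and in both overexpression groups. AMOTL1 (adjusted p 0.901) and AJUBA (adjusted p 0.660) were not called.

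The RNA of the coactivator itself did not pass the test in any arm. YAP1 averaged 176 ± 3.78 CPM with sgRNA-PURPL#1 and 172 ± 9.34 CPM with sgRNA-PURPL#2, against 168 ± 19.1 CPM with sgCtrl (SD, n = 3 each), and 269 ± 10.5 CPM in PURPL#1-OE and 266 ± 16.6 CPM in PURPL#2-OE, against 250.1 ± 7.35 CPM in Ctrl. Its log2 fold changes lay between 0.03 and 0.10, with adjusted p between 0.121 and 0.818. WWTR1, the gene of TAZ, fell by 0.36 ± 0.0707 on the log2 scale with sgRNA-PURPL#2 (adjusted p 3.16e-04) and rose by 0.26 ± 0.0552 in PURPL#2-OE (adjusted p 2.92e-04). Its changes of -0.09 with sgRNA-PURPL#1 and 0.07 in PURPL#1-OE were not called. TEAD1 averaged 447 ± 16.5 CPM with sgRNA-PURPL#1 and 510.2 ± 38.8 CPM with sgRNA-PURPL#2, against 369 ± 63.5 CPM with sgCtrl, whose libraries ran from 304 to 431 CPM. Its rise was 0.47 ± 0.0978 on the log2 scale with sgRNA-PURPL#2 (adjusted p 0.00279), 0.52 ± 0.050 in PURPL#1-OE (adjusted p 6.81e-10) and 0.34 ± 0.050 in PURPL#2-OE (adjusted p 1.58e-06), and 0.28 with sgRNA-PURPL#1 did not pass (adjusted p 0.0534). TEAD3 rose by 0.24 in PURPL#1-OE (adjusted p 0.0127) and 0.21 in PURPL#2-OE (adjusted p 0.0311). TEAD2 and TEAD4 were called in no arm.

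VGLL3 and VGLL4 are cofactors that bind TEAD proteins. VGLL3 averaged 119 ± 2.95 CPM with sgRNA-PURPL#1 and 133 ± 6.28 CPM with sgRNA-PURPL#2, against 156 ± 9.67 CPM with sgCtrl. It averaged 374 ± 17.5 CPM in PURPL#1-OE and 351 ± 25.4 CPM in PURPL#2-OE, against 204 ± 5.22 CPM in Ctrl. Its log2 fold changes were -0.40 (adjusted p 1.20e-05) and -0.23 (adjusted p 0.00559) with sgRNA-PURPL#1 and sgRNA-PURPL#2, and 0.87 (adjusted p 5.73e-14) and 0.78 (adjusted p 9.46e-13) in PURPL#1-OE and PURPL#2-OE. VGLL4 rose by 0.45 in PURPL#1-OE (adjusted p 2.68e-07) and 0.24 in PURPL#2-OE (adjusted p 0.00166). Of the 8 genes for effectors and TEAD partners, 0 were called higher and 1 lower with sgRNA-PURPL#1, 1 higher and 2 lower with sgRNA-PURPL#2, 4 higher and 0 lower in PURPL#1-OE, and 5 higher and 0 lower in PURPL#2-OE. Of all genes tested, 24.5% were called in either direction with sgRNA-PURPL#1, 24.4% with sgRNA-PURPL#2, 39.6% in PURPL#1-OE and 38.5% in PURPL#2-OE, the shares against which this count and those of the next lists are read.

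Of 19 genes of the Hippo kinase cascade and its upstream regulators, 18 were tested. Of these, 2 were called higher and 3 lower with sgRNA-PURPL#1, 5 and 4 with sgRNA-PURPL#2, 6 and 5 in PURPL#1-OE, and 5 and 4 in PURPL#2-OE, where 24.5%, 24.4%, 39.6% and 38.5% of all genes tested were called in these arms in that order. The kinase gene LATS1 and the scaffold gene SAV1 were called in none. AMOT, the founding angiomotin, was higher in all 4 arms, at 6.52 ± 0.275 CPM with sgRNA-PURPL#1 and 6.63 ± 1.39 CPM with sgRNA-PURPL#2, against 3.16 ± 0.312 CPM with sgCtrl, and at 9.12 ± 0.693 CPM in PURPL#1-OE and 12.8 ± 1.57 CPM in PURPL#2-OE, against 4.14 ± 0.174 CPM in Ctrl. Its log2 fold changes of 1.05, 1.07, 1.14 and 1.63 in that order of arms had adjusted p of at most 5.92e-05. NF2, the gene of the upstream tumour suppressor merlin, was lower in all 4 arms, by -0.53, -0.29, -0.41 and -0.35 (adjusted p at most 8.47e-04). FRMD6, another membrane-linked activator of the cascade, rose by 0.43 with sgRNA-PURPL#1 and 0.53 with sgRNA-PURPL#2 and fell by 0.50 in PURPL#1-OE and fell by 0.51 in PURPL#2-OE (adjusted p at most 5.09e-07). LIMD1, a relative of AJUBA, was lower by a log2 fold change of -0.79 with sgRNA-PURPL#1 (adjusted p 1.13e-07), -0.71 with sgRNA-PURPL#2 (adjusted p 8.94e-07) and -0.27 in PURPL#1-OE (adjusted p 0.0112). WTIP, the other relative of AJUBA, rose by 0.81 in PURPL#1-OE (adjusted p 4.00e-04) and 0.51 in PURPL#2-OE (adjusted p 0.0282), and FAT4, an atypical cadherin upstream of the pathway, by 0.72 (adjusted p 7.54e-13) and 0.38 (adjusted p 5.00e-07). FAT4 was also higher with sgRNA-PURPL#2 (0.45, adjusted p 0.0160), and WTIP was called with neither guide.

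The other 14 genes of a published YAP and TAZ signature were all tested. With sgRNA-PURPL#1, 2 were called higher and 4 lower; with sgRNA-PURPL#2, 4 higher and 2 lower; in PURPL#1-OE, 6 higher and 6 lower; and in PURPL#2-OE, 3 higher and 6 lower. The other 8, 8, 2 and 5 of the 14 were not called, where 24.5%, 24.4%, 39.6% and 38.5% of all genes tested were called in these arms in that order. CCDC80, a secreted matrix protein, averaged 3654 ± 76.0 CPM in PURPL#1-OE and 2914 ± 126 CPM in PURPL#2-OE, against 1157 ± 44.4 CPM in Ctrl, a rise of 1.66 ± 0.0535 and 1.33 ± 0.0530 on the log2 scale (adjusted p 3.38e-21 and 8.45e-19). Its log2 fold change was -0.04 with sgRNA-PURPL#1 (adjusted p 0.687) and 0.26 ± 0.0565 with sgRNA-PURPL#2 (adjusted p 7.02e-04). NT5E, the ectonucleotidase CD73, averaged 203 ± 9.84 CPM in PURPL#1-OE and 244 ± 10.4 CPM in PURPL#2-OE, against 587 ± 15.2 CPM in Ctrl. Its log2 fold changes were -1.53 ± 0.0528 and -1.26 ± 0.0524 (adjusted p 1.88e-20 and 2.24e-18). In the knockdown table they were 0.11 with sgRNA-PURPL#1 (adjusted p 0.175) and -0.36 ± 0.0596 with sgRNA-PURPL#2 (adjusted p 2.39e-05). TGFB2, a ligand of the TGF-beta family, was lower with sgRNA-PURPL#1 (-0.49) and higher with sgRNA-PURPL#2 (0.36), and lower in PURPL#1-OE (-0.61) and PURPL#2-OE (-1.31), with adjusted p of at most 0.00148. GADD45A, a stress-induced growth arrest gene, fell by 0.86 in PURPL#1-OE and fell by 0.97 in PURPL#2-OE (adjusted p at most 1.83e-08) and was not called with either guide. IGFBP3, which binds insulin-like growth factors, rose by 0.33 with sgRNA-PURPL#1 and 0.94 with sgRNA-PURPL#2 (adjusted p at most 5.06e-05); it was higher by 0.18 in PURPL#1-OE (adjusted p 0.00602) and lower in PURPL#2-OE (-0.26, adjusted p 1.65e-04).

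**Figure D4:**
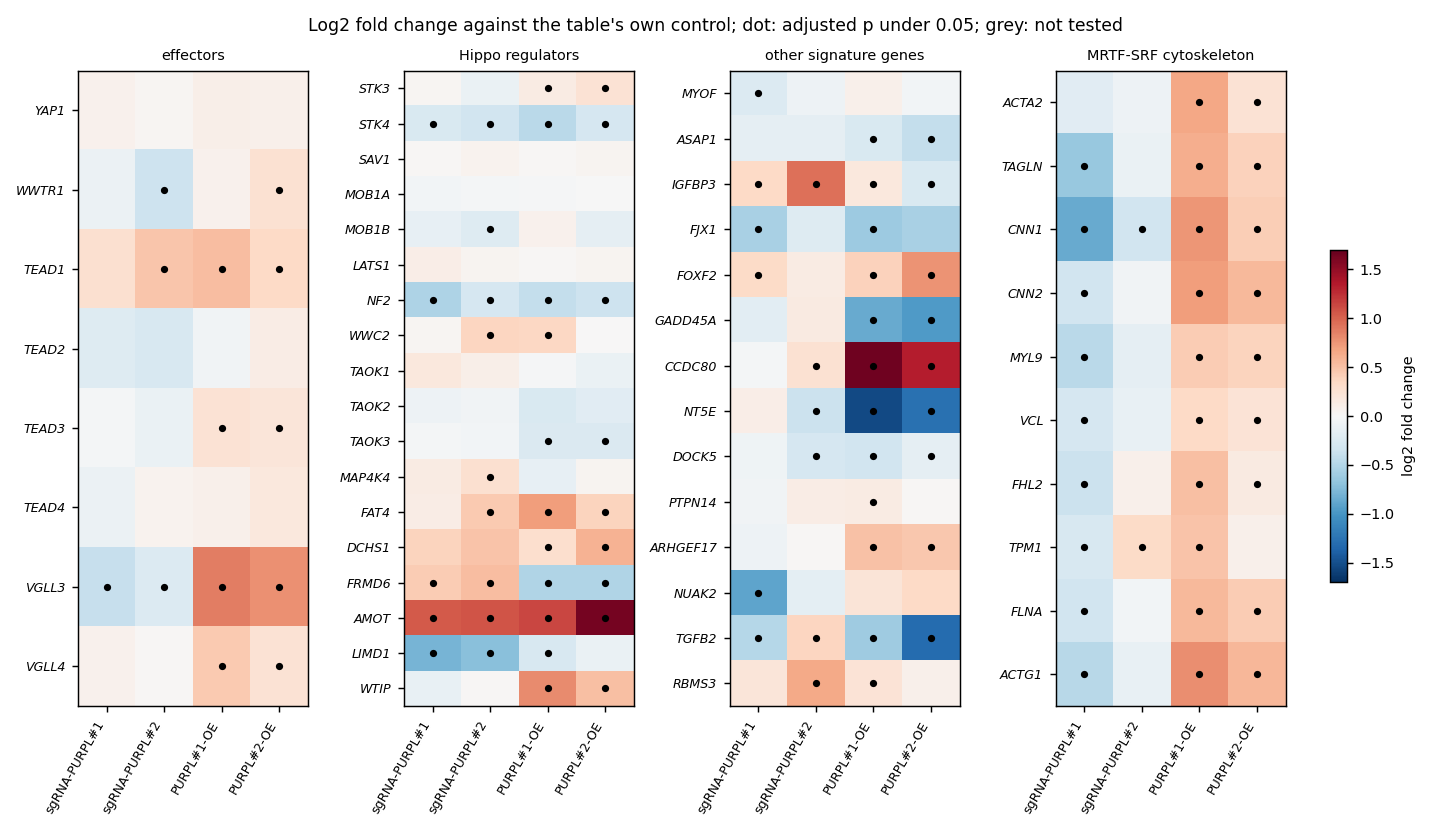
Log2 fold changes (colour) of effectors, Hippo regulators, other signature genes and cytoskeletal genes in the 4 arms, with knockdown arms left of overexpression arms; a black dot marks an adjusted p under 0.05. The 10 cytoskeletal genes are mostly lower with sgRNA-PURPL#1 and higher in PURPL#1-OE and PURPL#2-OE, while Hippo regulators and signature genes are mixed.

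Among the other CCN family genes, CCN3 was lower in all 4 arms, by -0.27, -0.48, -1.25 and -1.01 in sgRNA-PURPL#1, sgRNA-PURPL#2, PURPL#1-OE and PURPL#2-OE (adjusted p at most 8.25e-04). CCN4 was lower with both guides (-1.90, adjusted p 4.89e-05, and -0.93, adjusted p 0.0168) at 8 counts per library with sgRNA-PURPL#1 and 12 to 20 with sgRNA-PURPL#2, against 24 to 38 with sgCtrl. It was higher in PURPL#2-OE by 0.40 ± 0.117 (adjusted p 0.00646), at 10.9 CPM against 8.20 CPM in Ctrl, and not called in PURPL#1-OE (0.03, adjusted p 0.878). CCN5 was tested in the overexpression table only and was not called in either arm, and CCN6, at 0 to 5 counts per library, was not tested.

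YAP targets overlap with those of the actin-responsive factor MRTF and its partner SRF, so 10 cytoskeletal targets of that pair were read beside them. These 10 were chosen, like the other lists, with earlier results of these data known. With sgRNA-PURPL#1, 0 were called higher and 9 lower, with a median log2 fold change of -0.35; with sgRNA-PURPL#2, 1 was higher and 1 lower, with a median of -0.10. All 10 were higher in PURPL#1-OE (median 0.58), and 9 were higher and 0 lower in PURPL#2-OE (median 0.39), where 24.5%, 24.4%, 39.6% and 38.5% of all genes tested were called in these arms in that order. CNN1, the smooth muscle calponin, averaged 32.0 ± 3.16 CPM with sgRNA-PURPL#1 and 46.7 ± 4.22 CPM with sgRNA-PURPL#2, against 58.3 ± 3.57 CPM with sgCtrl, and was called lower with both guides (-0.86, adjusted p 1.57e-09, and -0.32, adjusted p 0.00292). ACTG1, the gene of cytoplasmic gamma actin, rose by 0.79 in PURPL#1-OE (adjusted p 3.73e-13) and 0.56 in PURPL#2-OE (adjusted p 6.69e-10), CNN2 by 0.71 and 0.56 (adjusted p at most 9.24e-10), and TAGLN, which shares 30.9% of its span with a same-strand gene, by 0.61 and 0.39 (adjusted p at most 2.15e-07). CNN1 was also higher in both overexpression groups (0.75, adjusted p 4.93e-04, and 0.42, adjusted p 0.0171), and ACTG1 (-0.47), CNN2 (-0.33) and TAGLN (-0.64) were lower with sgRNA-PURPL#1 (adjusted p at most 7.51e-05) and not called with sgRNA-PURPL#2. Of the 10 immediate early genes of serum and SRF, 8 were tested in the knockdown table and 10 in the other, with 1 higher and 2 lower with sgRNA-PURPL#1, 3 and 1 with sgRNA-PURPL#2, 2 and 5 in PURPL#1-OE, and 3 and 2 in PURPL#2-OE, against the same shares of all genes. EGR1 was lower in all 4 arms (-0.67, -0.89, -1.03 and -0.45, adjusted p at most 0.0125). JUNB was higher with both guides (0.61 and 0.52, adjusted p at most 0.0115), lower in PURPL#1-OE (-0.83, adjusted p 0.0323) and not called in PURPL#2-OE (-0.09, adjusted p 0.838). In the overexpression arms FOS (0.80 and 1.31) and DUSP1 (0.47 and 0.41) were higher and IER2 (-0.60 and -0.54) lower, with adjusted p of at most 0.00593. With the guides, DUSP1 was lower with sgRNA-PURPL#1 (-0.33, adjusted p 0.00228) and higher with sgRNA-PURPL#2 (0.30, adjusted p 0.00380), and IER2 was called with neither. FOS was called higher with sgRNA-PURPL#2 alone among the guides (1.40, adjusted p 0.0153), on few counts. It had 15, 13 and 17 counts with sgRNA-PURPL#2 and 13, 10 and 7 with sgRNA-PURPL#1, against 6, 8 and 3 with sgCtrl.

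The genes whose levels followed CCN1 and CCN2 most closely were found by the mean of the Pearson correlations of log2 CPM over the 9 libraries of each table, among 13637 genes tested in both. The libraries of a group share their treatment, so these values are a description. For CCN1 they were ACADVL (mean r 0.968), FARP1 (0.946), MYO1C (0.943), MYL9 (0.928) and TMEM130 (0.928). For CCN2 they were SCN9A (0.963), PRICKLE1 (0.959), EFHD1 (0.958), SLC8A1 (0.956) and DHRS3 (0.945). No gene stood in both lists, and neither list held another member.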

How the data were processed

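Read counts per gene were deposited by the authors in 2 tables, for 9 knockdown and 9 overexpression libraries of BJ cells. The submitters' processing notes list the build hg38, HISAT2 2.1.0 and featureCounts 2.0.1, with cutadapt 3.3, FastQC 0.11.9 and SAMtools 1.11. Annotation release and strand setting were not given in the sources used here. Per the labels' protocols, poly(A) RNA was reverse-transcribed from random hexamers, which is followed here although their molecule field says genomic DNA. PCR copies of a fragment count separately, since no molecular identifier is mentioned. In both tables the gene length equals the whole gene span in all 61544 rows.

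Groups were taken from the sample titles. In the overexpression table, 5 columns carry a group but no replicate number. Each table was fitted on its own in R 4.3.3 with edgeR 4.0.16 (filterByExpr with min.count 10 and min.total.count 15, TMM, robust quasi-likelihood test, all 9 libraries sharing the spread), and all 18 together for the difference between the experiments. Adjusted p-values follow Benjamini and Hochberg over all genes tested, with a threshold of 0.05. Errors are SE computed from the log2 fold change and F statistic of this fit, and the 95% intervals are built on that SE. Both are approximate. Alternatives were other scalings, DESeq2 1.42.0, other filters, only the groups compared, a replicate block and leaving out each library. The members and gene lists were chosen with earlier results of these data known. The genes named are the members, YAP1, WWTR1 and the TEAD genes, and of each other list up to 4 genes a table that were called in the same direction in both arms, by size of change and of CCN1 and CCN2 the 5 genes of highest correlation. LATS1, SAV1, CCN5, CCN6, CDH1, ZIM3 and the antisense genes were named outside this rule, after their values were seen. Also named outside it were PURPL, the markers KRT1, KRT5, KRT14, DSP, CD68, PDGFRA, SYNPO2 and LMOD1, and ENSG00000259132, which overlaps AJUBA. Replicate libraries within a group all differed beyond counting noise, by a chi-square per gene of 2.50 to 10.9.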

Additional observations from a re-analysis of the deposited data

Results flagged for a closer look

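The effects of the guides differed from each other for 8 of the 10 genes in the direct test of sgRNA-PURPL#2 against sgRNA-PURPL#1 (edgeR's quasi-likelihood test, adjusted p under 0.05). On the log2 scale the difference was 0.55 for CCN1, 0.49 for CCN2, 1.47 for ANKRD1, 0.40 for AMOTL2, 0.21 for LATS2, 0.45 for AXL, 0.27 for CRIM1 and 0.86 for F3. The effects of the overexpression groups differed for 4 genes in the test of PURPL#2-OE against PURPL#1-OE, by -0.70 for CCN2, -1.72 for ANKRD1, -0.34 for CRIM1 and -0.36 for F3. CCN2, ANKRD1, CRIM1 and F3 thus differed within both experiments.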

How the results depend on the processing

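Of the counts of called genes, the 88 from other scalings, filters, tools, subsets and the replicate block were all within 1.5 times the reported ones. Leaving out 1 library gave 143 such counts and 1 that moved: 5 genes were lower with sgRNA-PURPL#2 than with sgCtrl without sgCtrl replicate 1, against 3 with it. Over all such omissions the number higher and lower was 0 and 4 to 5 with sgRNA-PURPL#1, 3 and 3 to 5 with sgRNA-PURPL#2, 7 to 9 and 0 for sgRNA-PURPL#2 against sgRNA-PURPL#1, 5 and 2 to 3 in PURPL#1-OE, 4 and 3 in PURPL#2-OE, 0 and 4 between the overexpression groups, and 1 and 6 to 7 for the difference between the experiments. Single log2 fold changes kept direction and call in 429 fits with another setting. The exceptions were LATS2 between guides, lost with DESeq2 (0.21, adjusted p 0.105), without a filter (0.20, adjusted p 0.0850) and with the replicate block (0.21, adjusted p 0.0692); AMOTL1 in PURPL#1-OE with upper-quartile factors (-0.14, adjusted p 0.0634); AJUBA between guides, called with only the groups compared (0.23, adjusted p 0.0448); and AMOTL1 in the difference between experiments, which was -0.00297 with DESeq2's size factors, -0.00806 with upper-quartile factors and -0.00371 with DESeq2. The causes were not tested. Leaving out a library turned the sign of 9 values, none of them called: AMOTL1 (0.00831) and AMOTL2 (0.00867) with sgRNA-PURPL#1, LATS2 with sgRNA-PURPL#2 (0.0344), AJUBA in PURPL#1-OE (-0.00905) and between the overexpression groups (-0.17), AMOTL1 in PURPL#2-OE (0.0240), and AMOTL1 between the experiments (-0.0676, -0.00567 and -0.0504). Same-numbered knockdown libraries did not deviate together (correlation -0.09 to 0.04 over 9 pairs, and 0 of 9 libraries correlated best with their own number). These values cannot show whether same-numbered libraries were prepared together. LATS2 between guides was the only member call the block changed. No paired analysis was possible for the overexpression table because 5 of its columns carry no replicate number. AJUBA and ANKRD1 in the overexpression table rest on few counts.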
